A study of Mus musculus with 8 samples.

Results

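The hypoxia pathway genes examined here are Hif1a, Epas1, Arnt, Egln1, Egln3, Ndrg1, Bnip3, Adm, Ankrd37 and Car9. They were picked by name, as 3 genes of the HIF transcription factor, 2 of its oxygen sensors and 5 of its targets, and make up 10 of the 19937 genes tested. RNA of 4 control livers and 4 liver tumours was measured on 1 mouse gene array per sample. The tumours arose in mice in which a CEBPB-LAP promoter under doxycycline control drives human c-MYC in the liver, and they were collected at the humane endpoint. The controls were normal livers of matched mice. Genotype of the controls, strain, age and doxycycline schedule are not given in the sources used here, and the labels name the same treatment on all 8 samples. The labels number the samples 1 to 4 in each group without saying which animals they came from, and each p-value therefore speaks of the spread among the 8 samples, which may be technical.

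Cells read their oxygen supply through the HIF transcription factors. Each consists of an alpha subunit, encoded by Hif1a (HIF-1 alpha) or Epas1 (HIF-2 alpha), and the partner ARNT. With oxygen present, prolyl hydroxylases such as those encoded by Egln1 (PHD2) and Egln3 (PHD3) mark the alpha subunit, and the VHL ubiquitin ligase has it destroyed. With little oxygen the alpha subunit escapes, enters the nucleus and switches on genes of glucose use, vessel growth, mitochondrial turnover and acid handling. Egln3, Ndrg1, Bnip3, Adm, Ankrd37 and Car9 are known targets, Egln3 being a sensor and a target at once. In normal liver oxygen falls from the portal to the central vein, and Epas1 is known from endothelial cells and hepatocytes. The alpha subunits are controlled mostly as proteins, which an RNA array does not see.

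HIF binds DNA at a core of the letters ACGTG or GCGTG, and MYC with its partner MAX binds CACGTG, which contains ACGTG on both strands. Both were searched on both strands in the RefSeq promoter table (GRCm38.p6), which gives 250 bases before and 50 after a gene's start. An entry was found for 8 of the 10 genes, all but Epas1 and Ndrg1. ACGTG or GCGTG occurred in all 8 entries, against 43.8% of the 32817 promoters of the table and 51.7% of the 19106 that belong to genes tested. CACGTG occurred in 2 of the 8, Hif1a and Bnip3, against 7.15% of all promoters and 8.26% of those of genes tested. A match is a run of letters and not a measured binding site. The 250 bases before the start are shown for the 4 genes with an entry that were higher in the tumours, with ACGTG and GCGTG, read on either strand, in capitals and each sequence 5′ to 3′ along its gene. The Hif1a window is chr12:73907617-73907866 on the plus strand, Egln3 is chr12:54203875-54204124 on the minus strand, Bnip3 is chr7:138909507-138909756 on the minus strand and Ankrd37 is chr8:45999851-46000100 on the minus strand.
Hif1a: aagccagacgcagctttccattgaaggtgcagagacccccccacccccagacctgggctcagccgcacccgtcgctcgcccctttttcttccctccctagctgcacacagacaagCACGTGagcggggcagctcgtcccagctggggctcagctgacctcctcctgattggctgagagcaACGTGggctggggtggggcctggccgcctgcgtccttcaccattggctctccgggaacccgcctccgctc
Egln3: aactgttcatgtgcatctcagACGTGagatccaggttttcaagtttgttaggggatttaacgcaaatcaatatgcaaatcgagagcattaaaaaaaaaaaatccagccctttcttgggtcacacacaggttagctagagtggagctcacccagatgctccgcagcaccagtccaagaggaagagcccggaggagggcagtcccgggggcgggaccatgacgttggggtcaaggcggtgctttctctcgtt
Bnip3: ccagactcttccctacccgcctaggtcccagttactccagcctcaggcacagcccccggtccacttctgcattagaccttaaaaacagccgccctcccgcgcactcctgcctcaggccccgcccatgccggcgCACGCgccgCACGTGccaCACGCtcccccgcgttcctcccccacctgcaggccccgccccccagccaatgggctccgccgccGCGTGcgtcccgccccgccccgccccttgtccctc
Ankrd37: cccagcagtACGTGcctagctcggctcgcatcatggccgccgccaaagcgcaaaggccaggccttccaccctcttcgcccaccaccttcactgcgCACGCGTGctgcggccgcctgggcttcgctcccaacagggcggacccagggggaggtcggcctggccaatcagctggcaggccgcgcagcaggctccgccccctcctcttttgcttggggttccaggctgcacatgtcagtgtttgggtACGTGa
The CACGTG of Hif1a begins 135 bases before the start and that of Bnip3 108 bases before it. Egln3 has a single core, 229 bases before the start, whereas Bnip3 has CACGTG flanked by a GCGTG on either side and another GCGTG 35 bases before the start.

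Values are log2 expression values as deposited, after RMA, the usual background correction and normalisation of such arrays. A difference of 1 is a 2-fold difference, errors of group means are SD of 4 arrays, and log2 changes are tumours minus controls with their SE from limma. Array medians lay between 6.33 and 6.44. As a guide to weak signal, 95% of the group means of 1027 olfactory receptor genes, which liver is not known to use, lay at or below 6.19. Of all genes tested, 28.9% passed an adjusted p of 0.05 in limma, 16.2% higher and 12.7% lower in tumours, and for 30.2% the groups did not overlap. Hepatocyte markers marked both tissues as liver, with list means of 11.63 to 11.97 in controls and 10.13 to 10.51 in tumours, although 11 of 11 were lower in tumours. Xist was high in control liver 3 only (11.89, against 4.86 to 7.12 elsewhere), and the Y-linked genes read 3.46 to 5.39 there and 7.62 to 9.37 elsewhere. By these genes control liver 3 reads as female and the other arrays as male, so the groups are not balanced for sex. Leaving out control liver 3 ended 1 call among the hypoxia genes, that of Bnip3.

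In the tumours the 2 alpha subunit genes moved in opposite directions, Hif1a up and Epas1 down, and the oxygen sensor gene Egln3 and the target Ndrg1 rose. Egln3 rose 3.17-fold, Ndrg1 2.33-fold and Hif1a 1.72-fold, while Epas1 fell 3.53-fold. Ankrd37 and Bnip3 rose 1.28-fold and 1.27-fold, calls that were lost under some of the alternatives given below. Arnt, Egln1, Adm and Car9 did not pass the test. In all, 5 of the 10 genes were higher (16.2% of all genes) and 1 was lower (12.7%). The groups were apart for the same 6, 5 with all tumours above all controls (16.3% of all genes) and 1 below (13.9%). The median log2 change was 0.35 over the 10 genes and -0.04 over all genes tested.

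**Figure D1:**
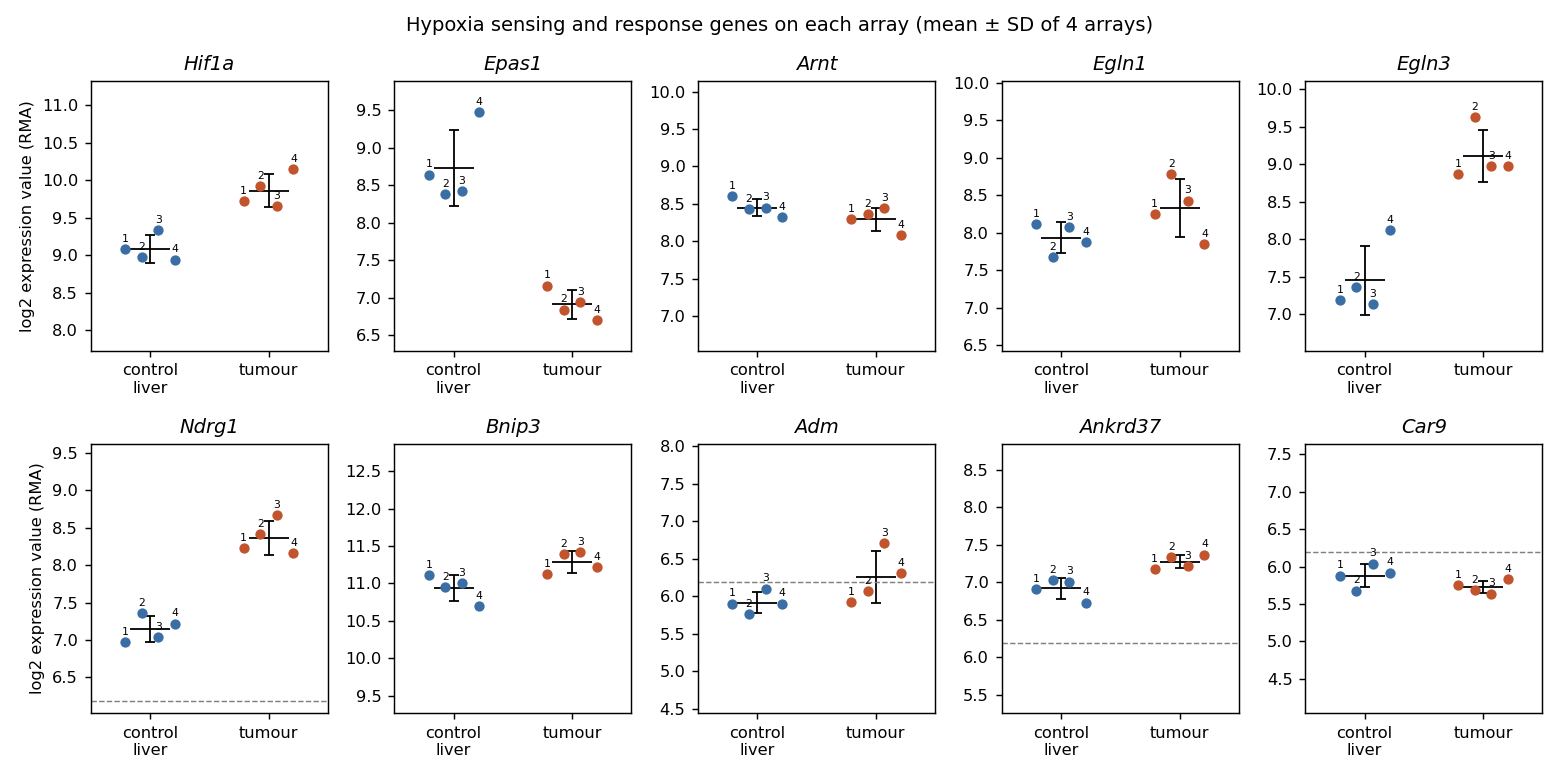
Log2 expression values of the 10 hypoxia genes on each array, with controls in blue, tumours in orange, the sample number above each point and bars for the mean ± SD of 4 arrays. All panels span the same number of log2 units, and the dashed line at 6.19 is the level that 95% of olfactory receptor group means did not exceed. All 4 tumours lie above all 4 controls for Hif1a, Egln3, Ndrg1, Bnip3 and Ankrd37 and below them for Epas1.

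Hif1a, the alpha subunit found in most cell types, read 9.08, 8.97, 9.34 and 8.94 in control livers 1 to 4 and 9.72, 9.92, 9.66 and 10.15 in tumours 1 to 4. Every tumour was above every control. The means were 9.08 ± 0.19 and 9.86 ± 0.22 (SD, n = 4 and 4), which is 0.78 log2 units apart (SE 0.14, limma adjusted p = 0.00138).

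Epas1, the second alpha subunit, read 8.64, 8.38, 8.42 and 9.48 in the controls and 7.16, 6.84, 6.94 and 6.70 in the tumours. The tumours were all low and close together, and control liver 4 was the highest array. The means were 8.73 ± 0.51 and 6.91 ± 0.19 (SD, n = 4 and 4), a log2 change of -1.82 (SE 0.22, adjusted p = 0.000135 in limma). Without control liver 4 the change was -1.57, with an adjusted p of 2.43e-05. By size this fall ranked 446 among the genes of the array that were lower in tumours.

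Arnt, the partner shared by both alpha subunits, read 8.60, 8.43, 8.45 and 8.32 in the controls and 8.30, 8.36, 8.44 and 8.08 in the tumours. The groups overlapped, and the change of -0.15 (SE 0.11, 95% interval -0.39 to 0.08, adjusted p = 0.343 in limma) did not pass.

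Within an array the Epas1 value minus the Hif1a value was -0.44, -0.58, -0.93 and 0.54 in the controls and -2.55, -3.08, -2.72 and -3.45 in the tumours. The groups were apart. The sign of a single difference carries no meaning, since 2 probe sets of different genes have no common scale, but its shift between groups shows unequal change. The shift was -2.60 on the log2 scale (exact permutation test over 70 splits of the arrays, two-sided p = 0.0286, the smallest this design allows, and adjusted p = 0.0286 over the 2 pairs compared). Since every tumour was above every control for Hif1a and below every control for Epas1, the groups had to be apart here. The p-value therefore follows from the results of the 2 genes and adds no support to them. The shift gives only the size of the unequal change.

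**Figure D2:**
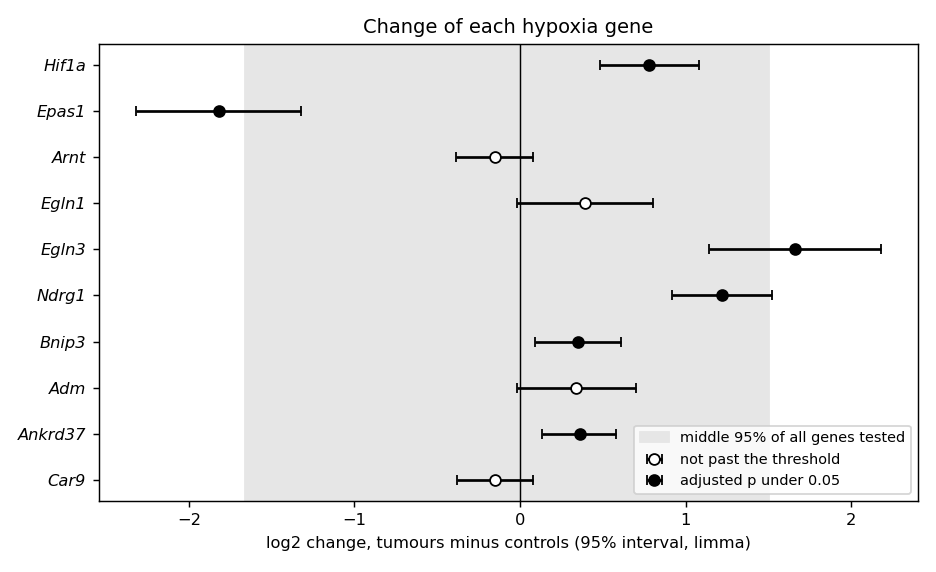
Log2 change of each hypoxia gene, tumours minus controls, with its 95% interval from limma, and in grey the range from -1.66 to 1.50 that holds the middle 95% of the changes of all genes tested. Filled points have an adjusted p under 0.05. Epas1 at -1.82 and Egln3 at 1.66 lie outside the grey range, and the other 8 genes lie inside it.

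Among the sensors, Egln3 read 7.19, 7.36, 7.13 and 8.12 in the controls and 8.87, 9.63, 8.98 and 8.98 in the tumours. All tumours were above all controls, with control liver 4 high among the controls and tumour 2 high among the tumours. The means were 7.45 ± 0.46 and 9.11 ± 0.35 (SD, n = 4 and 4), a log2 change of 1.66 (SE 0.23, adjusted p = 0.000338 in limma). It was 1.89 without control liver 4.

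Egln1, which encodes the main prolyl hydroxylase at normal oxygen, read 8.12, 7.67, 8.08 and 7.87 in the controls and 8.25, 8.78, 8.43 and 7.85 in the tumours. The groups overlapped through tumour 4 alone, and the other 3 tumours were above the highest control. The change was 0.39 (SE 0.18, 95% interval -0.02 to 0.80, adjusted p = 0.154 in limma). Without tumour 4 it was 0.55 (adjusted p = 0.0283 in limma), and with arrays weighted by their noise it was 0.46 (0.0470).

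Egln3 minus Egln1 within an array was -0.93, -0.31, -0.95 and 0.25 in the controls and 0.62, 0.86, 0.55 and 1.13 in the tumours. The groups were apart, with a shift of 1.27 (exact permutation test, two-sided p = 0.0286, adjusted p = 0.0286 over the 2 pairs). Egln3 thus changed by more than Egln1 in the same samples. When any 1 tumour was left out, the adjusted p was 0.0571 by the same test and did not pass.

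**Figure D3:**
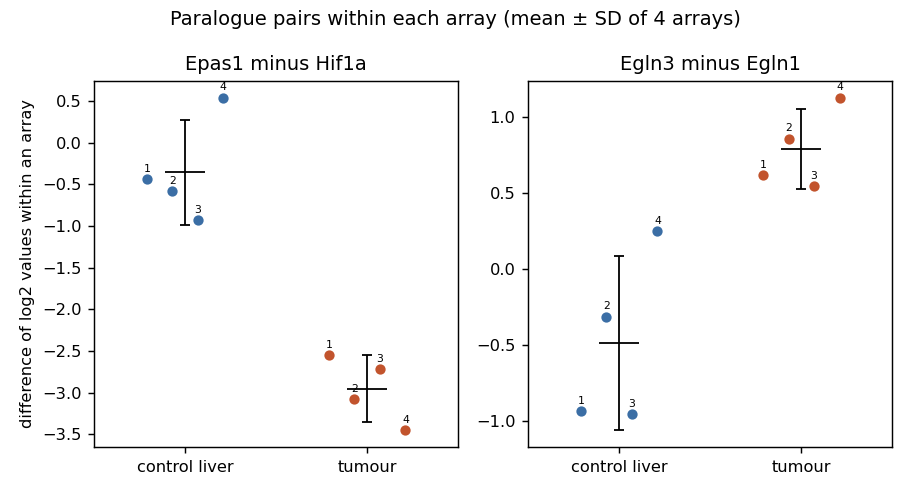
Difference of the log2 values of 2 related genes within each array, Epas1 minus Hif1a on the left and Egln3 minus Egln1 on the right, with the sample number above each point and bars for the mean ± SD of 4 arrays. The tumour arrays lie 2.60 lower on average for the first pair and 1.27 higher for the second, with no overlap in either.

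Among the targets, Ndrg1, a stress-induced gene linked to differentiation, read 6.97, 7.36, 7.04 and 7.22 in the controls and 8.23, 8.41, 8.67 and 8.16 in the tumours. The groups were well apart, the highest control at 7.36 and the lowest tumour at 8.16. The log2 change was 1.22 (SE 0.14, limma adjusted p = 6.47e-05). It lay between 1.12 and 1.29 when any 1 array was left out.

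Bnip3, a receptor on mitochondria that sends them to autophagy, read 11.11, 10.95, 11.00 and 10.70 in the controls and 11.12, 11.39, 11.42 and 11.22 in the tumours. All tumours were above all controls, but tumour 1 at 11.12 was next to control liver 1 at 11.11. The change was 0.35 (SE 0.12, adjusted p = 0.0470 in limma). A second Bnip3 probe set read 10.43, 10.26, 10.33 and 10.10 in the controls and 10.42, 10.95, 10.79 and 10.47 in the tumours. There tumour 1 lay just below control liver 1, and the change of 0.38 did not pass when this probe set stood for the gene (adjusted p = 0.0655). The call was also lost when 1 array was left out, for control livers 2, 3 and 4 and tumours 2, 3 and 4 (adjusted p between 0.0567 and 0.132), and with quantile normalisation (0.0941) or the mean of both probe sets (0.0515).

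Ankrd37, a small ankyrin repeat gene induced by HIF-1, read 6.91, 7.03, 7.01 and 6.73 in the controls and 7.18, 7.34, 7.22 and 7.37 in the tumours. The tumours were above all controls within a narrow band. The change was 0.36 (SE 0.10, limma adjusted p = 0.0221). The call was lost without control liver 4 (0.0596) or tumour 2 (0.0598).

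Adm, which encodes the vessel-widening peptide adrenomedullin, read 5.90, 5.76, 6.10 and 5.90 in the controls and 5.92, 6.07, 6.71 and 6.31 in the tumours. The groups overlapped, tumour 3 was the highest array, and the control mean of 5.92 lay under the weak-signal guide of 6.19. The change of 0.34 (SE 0.16, 95% interval -0.02 to 0.70, adjusted p = 0.161 in limma) did not pass, and it was 0.18 without tumour 3.

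Car9, the membrane carbonic anhydrase IX that exports acid equivalents, read 5.88, 5.68, 6.04 and 5.92 in the controls and 5.75, 5.69, 5.64 and 5.83 in the tumours. Both group means were under 6.19, so neither group is shown to express it above weak signal. The change was -0.15 (SE 0.10, 95% interval -0.38 to 0.08, adjusted p = 0.329 in limma).

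The genes did not share one order of the arrays. Among controls, number 4 held the highest Epas1 and Egln3 and the lowest Hif1a, Arnt, Bnip3 and Ankrd37. Among tumours, number 4 held the highest Hif1a, Ankrd37 and Car9 and the lowest Epas1, Arnt, Egln1 and Ndrg1. Tumour 3 held the highest Ndrg1, Bnip3, Adm and Arnt, and tumour 2 the highest Egln1 and Egln3.

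The gene whose centred values lay nearest to those of Epas1 over the 8 arrays was Ido2, a tryptophan-degrading enzyme gene, with a root mean square difference of 0.139 log2 units and r = 0.990. For Hif1a it was Zfp280d, a zinc finger gene (0.0862, r = 0.980). For Egln3 it was Pla2g12a, a phospholipase gene (0.290, r = 0.950), and for Ndrg1 it was Nudt5, a hydrolase of ADP-ribose (0.121, r = 0.983). These 4 genes differed between the groups too, with log2 changes of -1.77, 0.77, 1.49 and 1.25, and the likeness over 8 arrays is given as a description. For the other 6 genes the nearest were Sdhaf3 (Arnt), Sdhaf1 (Egln1), B3gnt2 (Bnip3), Ptpn22 (Adm), Arglu1 (Ankrd37) and Smo (Car9), at 0.0454 to 0.0967 log2 units.

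Epas1 is known from endothelium, and its fall is shown beside the markers of the cell types that liver holds. Of 9 sinusoidal endothelial markers 6 were lower and 3 did not pass, with list means of 7.70 to 8.25 in controls and 6.56 to 6.98 in tumours. Clec4g, a lectin of sinusoidal cells, changed by -2.71 (SE 0.15), a limit because its tumour mean of 6.15 was under 6.19. The coagulation factor gene F8 changed by -1.99 (SE 0.20), while Lyve1 changed by 0.22 (SE 0.20) and did not pass. Of 10 general endothelial markers 2 were higher, Cd34 among them at 1.42 (SE 0.18, a limit with a control mean of 5.71), and 4 were lower, with list means of 6.49 to 7.09 in controls and 6.69 to 7.05 in tumours. Hepatocyte markers had a median change of -0.71, ranging from -6.38 for Cyp2e1 to -0.33 for Ttr, so Cyp2e1 weighs heavily in the fall of the list mean. In control livers 1 to 4 Epas1 read 8.64, 8.38, 8.42 and 9.48. The sinusoidal means of these arrays were 7.70, 7.99, 8.25 and 8.20, and the hepatocyte means 11.77, 11.67, 11.63 and 11.97. In tumours 1 to 4 Epas1 read 7.16, 6.84, 6.94 and 6.70. The sinusoidal means there were 6.56, 6.84, 6.98 and 6.89, and the hepatocyte means 10.38, 10.51, 10.43 and 10.13. The part of these cell types in the change of Epas1 was not tested, and in whole tissue fewer cells of a type and less RNA per cell cannot be told apart.

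**Figure D4:**
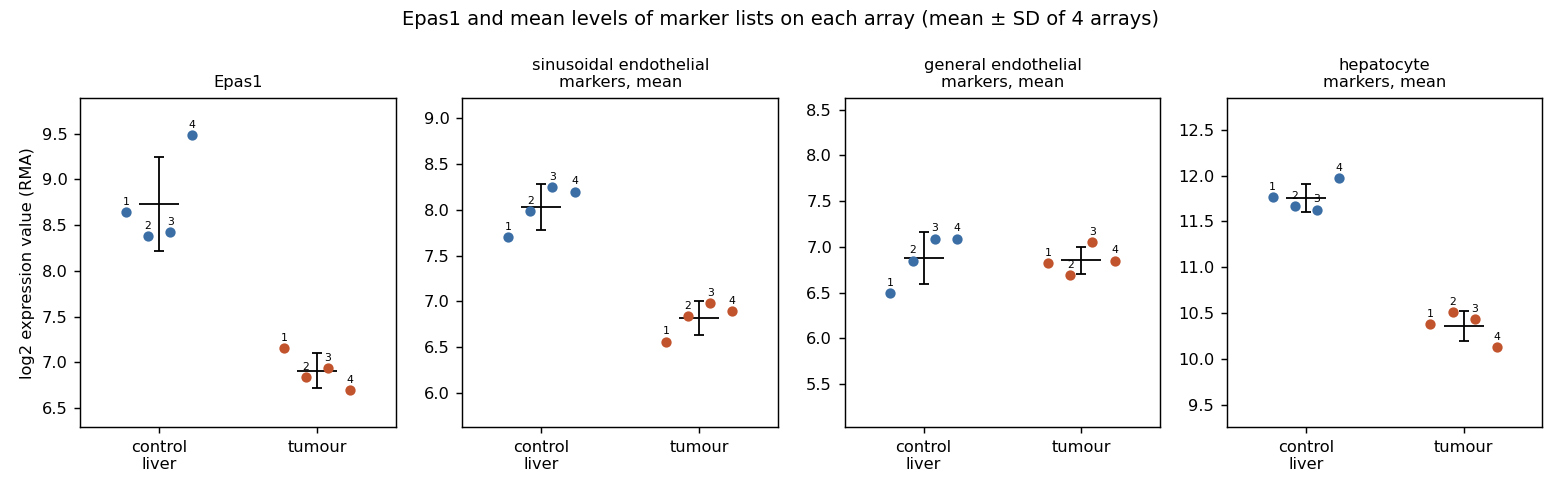
Epas1 and the mean log2 value of the sinusoidal endothelial, general endothelial and hepatocyte marker lists on each array, with the sample number above each point and bars for the mean ± SD of 4 arrays. Epas1, the sinusoidal mean and the hepatocyte mean are lower in all 4 tumours than in all 4 controls, and the general endothelial means overlap.

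The means of the remaining marker lists overlapped between the groups, except those of the stellate cell and fibroblast list. Macrophage markers had 3 higher and 2 lower of 10 (means of 7.31 to 8.14 in controls and 7.55 to 8.08 in tumours), and stellate cell and fibroblast markers 1 higher and 4 lower of 10 (7.26 to 7.44 and 6.77 to 7.08). Bile duct markers had 1 higher and 1 lower of 5 (6.00 to 6.13 and 6.04 to 6.41). None of 9 T, B and NK cell markers passed in limma, with 0 at an unadjusted p under 0.05 (5.37 to 5.76 and 5.38 to 5.59), and 7 of them, Cd4, Cd79a and Ms4a1 included, had both group means under 6.19. None of 4 red cell markers passed in limma, with 0 at an unadjusted p under 0.05 (6.50 to 6.72 and 6.30 to 6.64).

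The wider pathway was read from 4 lists that hold 77 measured genes besides the 10. Of these 30 were higher and 12 lower in tumours, against the 16.2% and 12.7% of all genes given above, with a median log2 change of 0.25. No list was tested as a set.

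Of 16 further genes of the HIF subunits and the sensing machinery, 6 were higher and 1 lower, with a median of 0.11. Hif3a, whose products can restrain the other alpha subunits, read 5.18 to 5.53 in the controls and 6.61 to 6.96 in the tumours. The groups were apart (log2 change 1.49, SE 0.12, limma adjusted p = 7.39e-06), and since the control mean was under 6.19 the fold is a limit rather than an exact size. Parts of the VHL ubiquitin ligase rose, with the RING protein gene Rbx1 at 0.65 (SE 0.15), the scaffold gene Cul2 at 0.52 (SE 0.10) and the elongin C gene Eloc at 0.34 (SE 0.10). Vhl itself changed by -0.26 (SE 0.11) and the elongin B gene Elob by 0.31 (SE 0.12), and neither passed. Siah1a, which encodes a ubiquitin ligase that acts on prolyl hydroxylases, rose by 0.66 (SE 0.12). Os9, whose protein was described as a partner of HIF-1 alpha and of the prolyl hydroxylases and also works in quality control of the endoplasmic reticulum, changed by -1.12 (SE 0.20). The third prolyl hydroxylase gene Egln2 changed by 0.02 (SE 0.14), and Hif1an, the asparaginyl hydroxylase FIH, by 0.04 (SE 0.15).

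Of 19 targets of glucose use 12 were higher and 1 lower, with a median of 0.71. The phosphofructokinase gene Pfkp read 5.55 to 6.45 in the controls and 8.54 to 9.19 in the tumours (log2 change 3.00, SE 0.20). The aldolase gene Aldoa rose by 2.06 (SE 0.24) and the hexokinase gene Hk2 by 1.28 (SE 0.11), and the control means of Pfkp and Hk2 were under 6.19. Slc16a3, the lactate exporter MCT4, rose by 0.71 (SE 0.12). Pdk1, a pyruvate dehydrogenase kinase gene, changed by 0.19 (SE 0.23), and the glucose transporter gene Slc2a1 by 0.53 (SE 0.18), and neither passed. The glycogen branching enzyme gene Gbe1 was lower (-0.99, SE 0.28), a call lost without tumour 1 (adjusted p = 0.0579 in limma) or tumour 4 (0.0547). In this list tumour 4 had the lowest mean of the tumours, 8.37 against 8.71 to 8.85 in the others, and all controls were at or below 8.04.

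Of 17 targets of vessels and blood 5 were lower and 2 higher, with a median of -0.02. Vegfa, the vascular growth factor, read 8.53, 8.79, 8.80 and 9.07 in the controls and 7.50, 7.74, 7.44 and 7.48 in the tumours. The highest tumour, 7.74, was below the lowest control, 8.53 (log2 change -1.26, SE 0.13, adjusted p = 3.48e-05 in limma). Its receptor gene Kdr changed by -1.10 (SE 0.20), and Calcrl, the receptor through which adrenomedullin acts, by -1.30 (SE 0.21). The other adrenomedullin receptor parts, Ramp2 and Ramp3, changed by 0.28 (SE 0.14) and -0.08 (SE 0.13) and did not pass. Angpt2, a destabiliser of vessels, read 5.99 to 6.16 in the controls, under 6.19, and 7.02 to 7.79 in the tumours (log2 change 1.30, SE 0.15). Tfrc, the transferrin receptor, rose by 2.88 (SE 0.29). Tek was lower too (-0.76, SE 0.25, adjusted p = 0.0444 in limma), but its groups overlapped. Kdr and Tek also stand in the general endothelial marker list, whose means overlapped between the groups, while the sinusoidal marker means were lower in tumours. The part of endothelial cells in these changes was not tested. Trf, lower as well (-0.46, SE 0.14, adjusted p = 0.0292 in limma), also stands in the hepatocyte marker list. Epo read 4.65 to 5.06 over the 8 arrays, below the weak-signal guide.

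Among targets of survival, matrix and feedback 10 of 25 were higher and 5 lower, with a median of 0.33. Igfbp1, a secreted binder of insulin-like growth factors, read 7.64, 6.55, 7.27 and 6.65 in the controls and 9.06, 11.00, 11.04 and 10.28 in the tumours. Tumour 1 was the lowest tumour and still above all controls (log2 change 3.32, SE 0.41, adjusted p = 0.000145 in limma). Car12, the carbonic anhydrase XII that is kin to Car9, read 5.24 to 5.80 in the controls and 6.81 to 7.68 in the tumours (log2 change 1.88, SE 0.19), with a control mean under 6.19. Mif, a cytokine gene, rose by 1.83 (SE 0.28). The circadian factor gene Rora changed by -1.28 (SE 0.20) and the clock and hypoxia repressor gene Bhlhe40 by -1.02 (SE 0.26). Bnip3l, the close relative of Bnip3 with the same mitochondrial role, changed by -0.44 (SE 0.11), opposite in sign to Bnip3, and its groups were apart.

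**Figure D5:**
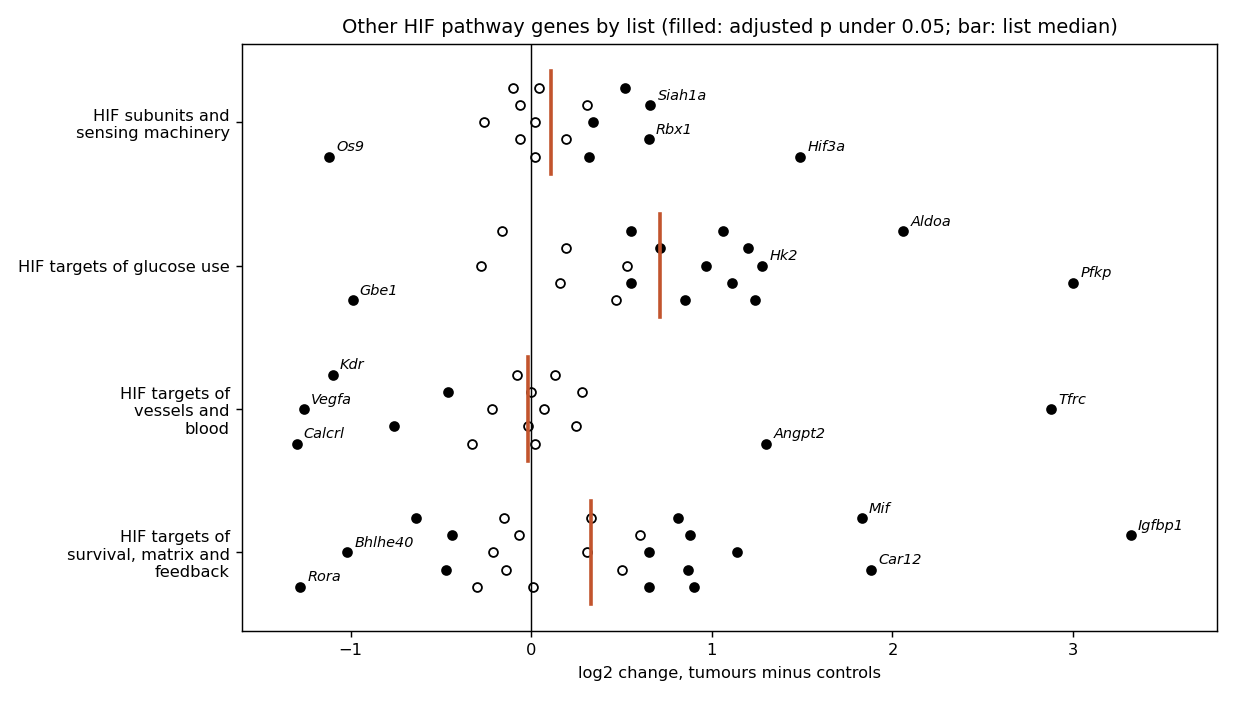
Log2 changes, tumours minus controls, of 77 other HIF pathway genes in 4 lists, with filled points for an adjusted p under 0.05 in limma and an orange bar for each list's median. The medians are 0.11 for subunits and sensing, 0.71 for glucose use, -0.02 for vessels and blood and 0.33 for survival, matrix and feedback, and the genes named by rule are labelled.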

How the data were processed

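The authors deposited log2 values of 34760 probe sets, made with RMA in R 3.0.2 per the submitters' processing notes. Settings and genome build are not given in the sources used here. Of the probe sets, 22961 had a gene in the platform annotation. The 21640 with 1 symbol gave 19937 genes, each read from its probe set of highest mean, and 1321 with several symbols were left out. Groups were compared with limma 3.58.1 (lmFit, eBayes; R 4.3.3) in a fit of group alone, with Benjamini-Hochberg adjustment over all 19937 genes, a method tested on simulated data. Pairs of genes were compared by exact permutation. Of 81 further pathway genes 77 were measured. Named from each list were up to 3 called genes of largest change in the more frequent direction and up to 2 in the other, and other list genes named were chosen after their values were seen. For each hypoxia gene the nearest other gene was found, leaving out predicted genes. The genes and lists were chosen with earlier results of these data known. Tables and plots used Python 3.11.15, pandas 2.3.3 and matplotlib 3.10.9. The precision is limited by the 4 arrays per group. Same-numbered arrays of the groups gave no sign of deviating together, which with 4 arrays per group cannot exclude pairing.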

Additional observations from a re-analysis of the deposited data

Results flagged for a closer look

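In 2 of 60 groups of 4 arrays tested, over the named genes and gene pairs, 1 array lay far from the other 3, where chance flags about 1 group in 20. Egln3 read 9.63 in tumour 2 and 8.87 to 8.98 in the other tumours, so its highest tumour stood alone, on the side away from the controls. Bhlhe40 read 5.98 in tumour 4 and 7.09 to 7.24 in the other tumours. Its log2 change was -0.73 without that array and still passed (adjusted p = 0.00473 in limma).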

How the results depend on the processing

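Over 15 alternatives for most genes, no hypoxia gene and none of the 18 named pathway genes changed direction. The calls of Hif1a, Epas1, Egln3 and Ndrg1 held under each, as did the results that Arnt, Adm and Car9 did not pass (Car9 was not among the genes tested when the dimmest 33.3% were left out). The number of hypoxia genes higher ranged from 3 to 5 when 1 array was left out, with 3 without control liver 4 or tumour 2, and it was 6 with array weights. With the replicate number as a block it was 3, since Bnip3 (adjusted p = 0.0855 in limma) and Ankrd37 (0.0664) did not pass. Same-numbered arrays correlated between -0.320 and 0.055 in their deviations from group means. That gave no sign of pairing by number, but with 4 arrays per group it cannot exclude pairing, and the labels do not say. As a paired test the shifts of -2.60 for Epas1 minus Hif1a and 1.27 for Egln3 minus Egln1 gave p = 0.125, the smallest that an exact test of 4 pairs allows. Leaving out 1 array, they ranged from -2.79 to -2.30 and from 1.12 to 1.52. By the exact test the adjusted p of both was 0.0286 without any 1 control. It was 0.0571 without any 1 tumour, which did not pass. All genes called numbered 4831 to 5838 without 1 array and 5007 to 6558 otherwise. The other pathway genes higher numbered 27 to 33 and those lower 9 to 14. The Bnip3 result by its second probe set was added after the data were seen. Signals near the weak-signal guide limit what can be said of Adm and Car9.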
